A study of Homo sapiens with 12 samples.

Results

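The 55 genes described here encode the nuclear pore and the machinery that carries proteins and RNA through it. The rule that selects them uses names and known roles and no measured value, and covers 28 pore proteins, 23 importins and exportins, and 4 genes of the Ran cycle. A gene was measured where a probe set was annotated to it alone, and the probe set with the highest mean over all arrays was used where a gene had several, which was so for RAN. This held for 52 of the 55 genes, among 18404 genes in all. NUP62, POM121 and RCC1 had only probe sets annotated to several genes and have no value here, so 26 pore proteins, 23 importins and exportins and 3 Ran cycle genes follow. No filter on low values was applied.

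Nuclear pores are channels through the nuclear envelope, built from many copies of proteins called nucleoporins. Stacked rings form the scaffold, nucleoporins with disordered repeats fill the channel, and filaments on the cytoplasmic side and a basket on the nuclear side serve as docking sites. Importins and exportins bind their cargo and pass through the channel, and the small GTPase RAN, loaded with GTP inside the nucleus and converted to its GDP form outside, sets the direction. Dividing cells have to make new pores as their nuclei grow, and NUP98 and NUP214 are known in leukemia as partners in fusion genes.

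The cells were NB4, a line from a human acute promyelocytic leukemia in which all-trans retinoic acid (ATRA) drives maturation along the granulocyte path, and total RNA was hybridised to 12 Affymetrix arrays. Knockdown cells carried a lentiviral short hairpin RNA against HOTAIRM1, a long noncoding RNA from the HOXA cluster: shRNA1 in 2 biological replicates and shRNA2 in 1. Control cells carried a scrambled shRNA in the same vector (2 biological replicates) or were wild type NB4 with no vector (1 sample). Each was taken after 96 hours of 0.5 uM ATRA and before it, so 4 arms hold 3 arrays each. The lines with a vector were sorted for GFP and grown from single cells, so each may carry features of its founder cell, and the labels do not say which replicates share a clone.

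Values are log2 expression levels, and levels of different probe sets are not compared. The lowest value over all genes was 2.67 and the highest 14.63, and medians per array lay between 7.73 and 7.81. The knockdown was not checked, because no probe set is annotated to HOTAIRM1 in the table used here. Of 7 measured promyelocyte markers MPO had the highest mean, 13.56, and the markers varied: in knockdown cells CTSG fell (-2.45, limma adjusted p = 0.00356) and CSF3R rose (1.30, adjusted p = 0.0290), beside -1.08 (adjusted p = 0.102) and 0.92 (adjusted p = 0.0840) in control cells. The median change of these 7 was -0.35, -0.06 and -0.19 in shRNA1 replicates 1 and 2 and shRNA2, against 0.09 and -0.07 in scrambled replicates 1 and 2 and -1.10 in wild type. The 6 measured markers of mature granulocytes were all called higher after ATRA, against 10.1% of all genes in knockdown and 15.2% in control cells. The mean level of the granulocyte markers per array was 10.55 to 10.72 in knockdown cells after ATRA and 10.60 to 11.07 in control cells after ATRA, against 8.36 to 8.69 in untreated knockdown cells and 8.67 to 9.46 in untreated control cells, and its part in the results below was not tested. Means over the erythroid, lymphoid and epithelial or fibroblast lists lay between 6.75 and 7.55 in every array, but single genes moved: EPCAM changed by -0.52 in knockdown cells (limma adjusted p = 0.00252) and -0.86 in control cells (adjusted p = 0.00011), COL1A1 was called higher in control cells (0.26, adjusted p = 0.0321), and CD79A averaged 9.14 ± 1.54 in untreated control cells (SD, n = 3). On the first principal component of all genes, with 66.7% of the variance, the untreated scrambled replicate 2 array lay at -10.59 and the other untreated arrays between -41.2 and -32.5, while ATRA arrays lay between 20.8 and 43.6.

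In control cells ATRA lowered nearly the whole set. Of the 52 genes 48 were called lower (limma adjusted p under 0.05), against 20.9% of all genes tested, and 1 was called higher, against 15.2% of all genes. The called falls comprised 25 of 26 pore proteins, 20 of 23 importins and exportins and all 3 Ran cycle genes. The importin IPO4, which carries histones and ribosomal proteins, had the largest fall, 2.73-fold, and the gene that rose was the importin alpha KPNA5, by 1.22-fold. The other 3 genes did not pass: the basket protein NUP50 (log2 -0.30, adjusted p = 0.119), the importin alpha KPNA4 (-0.17, adjusted p = 0.278) and XPO6, the exporter of actin (-0.07, adjusted p = 0.549).

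The median log2 change in control cells was -0.76 over pore proteins, -0.48 over importins and exportins and -0.62 over the Ran cycle genes, beside 0.05 over all genes. The median of pore proteins minus that of importins and exportins was -0.28, and it lay between -0.33 and -0.17 under the 23 alternatives tried. These are descriptions, since a gene list chosen with earlier results of these data known was given no test. In 44 of the 52 genes every ATRA array of the control cells lay below every untreated one, against 23.4% of all genes. Total RNA was measured, so fewer cells with a given transcript and less of it per cell cannot be told apart. Tests rest on 3 arrays per arm, which limits the precision, and p-values reflect how far these samples lie apart, which may in part be technical.

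**Figure D1:**
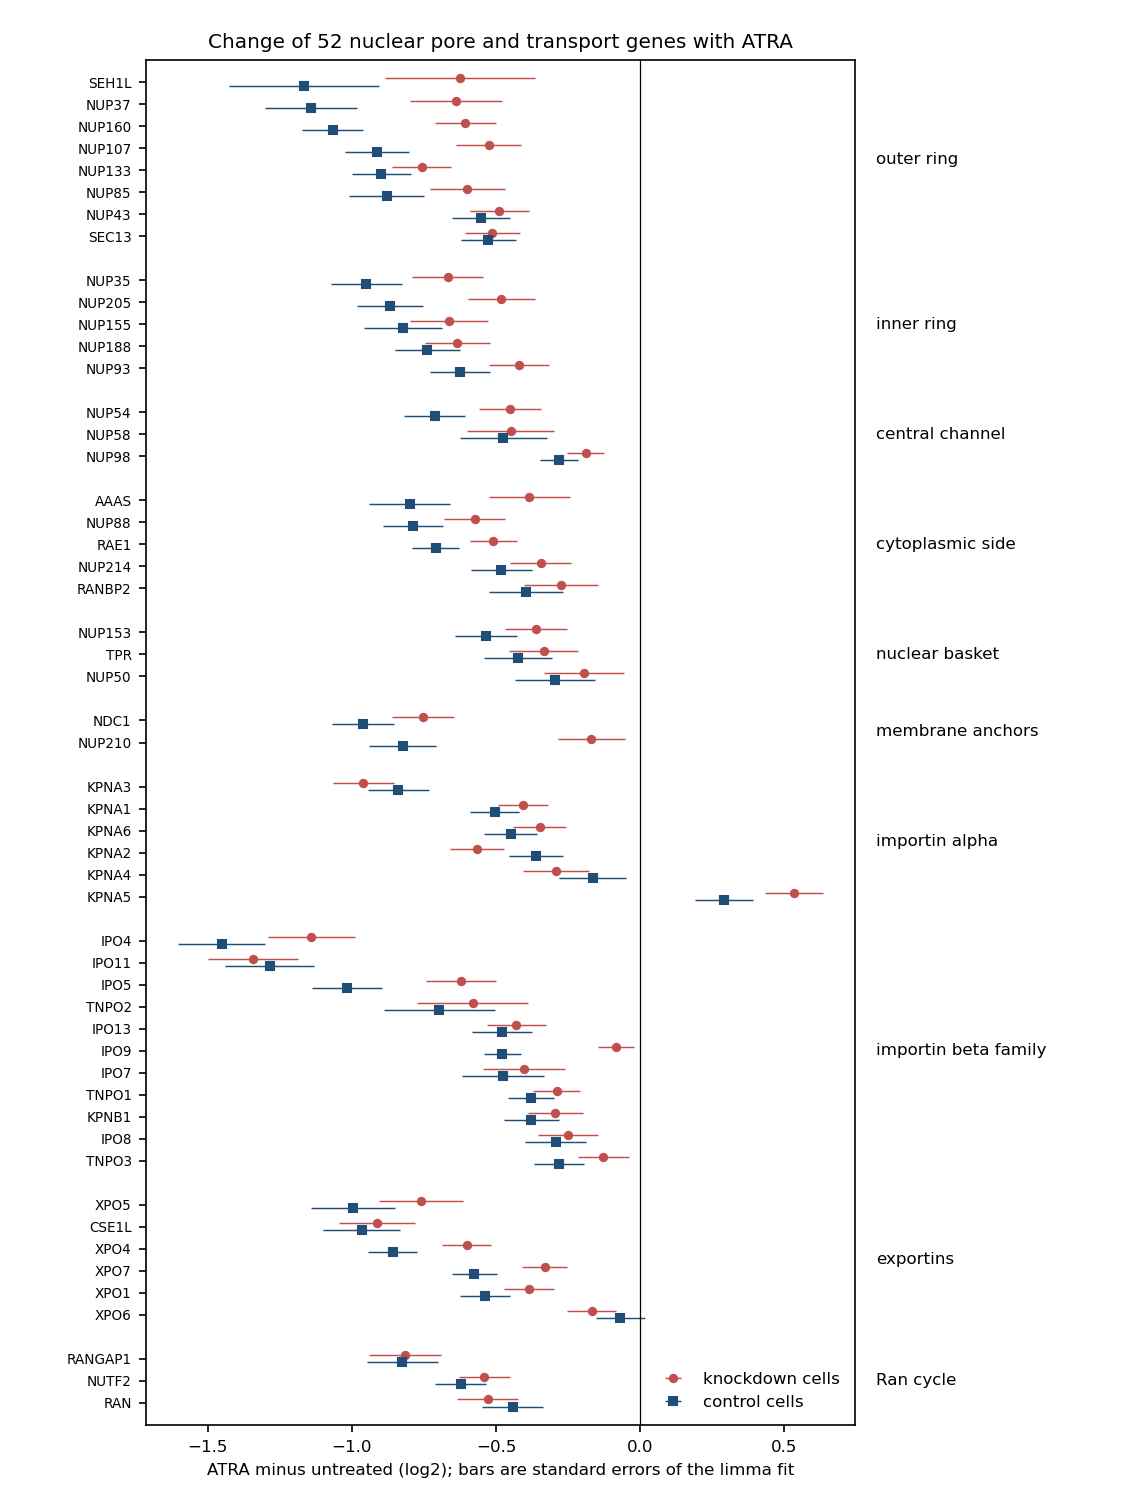
Log2 change with ATRA (horizontal axis, ATRA minus untreated) of the 52 measured genes, grouped by role and ordered by the change in control cells. Red circles are knockdown cells and blue squares control cells, and bars are standard errors of the limma fit; KPNA5 alone lies right of 0, and the importins IPO4 and IPO11 lie farthest left.

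Knockdown cells showed the same direction, with smaller median changes when all arrays were used. There 38 of the 52 genes were called lower, against 14.7% of all genes, and 1 was called higher, again KPNA5, against 10.1% of all genes. The called falls comprised 19 pore proteins, 16 importins and exportins and the 3 Ran cycle genes. Median log2 changes were -0.50 over pore proteins, -0.40 over importins and exportins and -0.54 over the Ran cycle genes, beside -0.03 over all genes. Without wild type arrays the median of importins and exportins was -0.37 in control cells, so it was then not smaller in knockdown cells. The median of pore proteins in control cells was -0.70 in that fit and stayed larger than in knockdown cells. In 50 genes every ATRA array of the knockdown cells lay below every untreated one, against 24.6% of all genes, so some genes that missed the threshold were still lower in each pair of arrays. The exceptions were NUP210, whose arrays overlapped, and KPNA5, whose ATRA arrays were all higher. The 13 genes not called were NUP210, IPO9, SEH1L, NUP50, TNPO3, XPO6, RANBP2, IPO8, KPNA4, AAAS, TPR, IPO7 and NUP98.

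Promoter sequences are shown for 3 genes picked as extremes of the fitted values. In control cells SEH1L had the largest fitted fall among pore proteins, a rank it loses to NUP37 and NUP160 without wild type arrays. IPO4 had the largest fall among importins and exportins in control cells. NUP210 had the largest difference between the responses of knockdown and control cells, which was not called. Each sequence runs 5′ to 3′ on the gene's strand, from 250 bases before the start to 50 bases after it (RefSeq, GRCh38.p14). SEH1L lies at chr18:12947761-12948060 on the plus strand, IPO4 at chr14:24188767-24189066 on the minus strand and NUP210 at chr3:13420273-13420572 on the minus strand. Capitals mark matches on either strand to the motifs searched, which are given after the sequences.
SEH1L: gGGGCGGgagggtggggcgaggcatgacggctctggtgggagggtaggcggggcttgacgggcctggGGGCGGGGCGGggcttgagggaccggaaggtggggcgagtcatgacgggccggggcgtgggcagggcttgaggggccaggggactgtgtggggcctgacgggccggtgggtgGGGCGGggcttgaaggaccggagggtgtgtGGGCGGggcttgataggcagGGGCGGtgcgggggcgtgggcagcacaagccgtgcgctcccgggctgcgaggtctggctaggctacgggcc
IPO4: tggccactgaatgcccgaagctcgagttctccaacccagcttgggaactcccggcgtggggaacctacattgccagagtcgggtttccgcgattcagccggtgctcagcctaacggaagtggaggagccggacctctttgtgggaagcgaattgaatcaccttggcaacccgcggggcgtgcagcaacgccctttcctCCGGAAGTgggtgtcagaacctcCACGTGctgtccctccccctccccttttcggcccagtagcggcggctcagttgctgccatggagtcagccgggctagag
NUP210: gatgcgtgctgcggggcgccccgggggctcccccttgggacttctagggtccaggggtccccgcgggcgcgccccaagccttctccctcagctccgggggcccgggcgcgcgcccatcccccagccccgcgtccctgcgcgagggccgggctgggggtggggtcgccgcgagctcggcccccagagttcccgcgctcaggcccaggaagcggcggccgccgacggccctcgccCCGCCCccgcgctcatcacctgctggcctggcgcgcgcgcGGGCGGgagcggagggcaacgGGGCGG

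Capitals are GC boxes (GGGCGG) in SEH1L and NUP210. In IPO4 they are an ETS-like motif (CCGGAAGT, bases 199 to 206 of the window) and an E-box (CACGTG, bases 222 to 227). SEH1L held 6 GC boxes, a pair of them sharing a base, and NUP210 held 3. Among the 47 measured genes with a promoter in the table, 17% held CCGGAAGT and 14.9% held CACGTG, beside 6.37% and 8.88% of 14228 promoters of the genes tested. The GC box was held by 57.4% of the 47 and 60.0% of all, CCAAT by 42.6% and 36.3%, the E2F-like TTTNNCGC by 8.51% and 8.96%, and the NRF1-like GCATGCGC by 6.38% and 4.18%. CACGTG stood in 2 of 25 promoters of pore proteins and 4 of 19 of importins and exportins, and CCGGAAGT in 5 and 3. Both strands were searched, and these letter matches were not tested as binding sites.

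The values per array below give shRNA1 replicate 1, shRNA1 replicate 2 and shRNA2 for knockdown cells, and scrambled replicate 1, scrambled replicate 2 and wild type for control cells, in these orders. Counts of calls by role stand beside 14.7% of all genes called lower in knockdown and 20.9% in control cells. For calls higher these shares were 10.1% and 15.2%. The outer ring is the Y-shaped scaffold complex that is laid down early in pore assembly. All 8 genes had negative changes in both kinds of cells, and 8 were called lower in control cells and 7 in knockdown cells. Median log2 changes were -0.60 in knockdown and -0.91 in control cells. NUP160, at the complex's hub, read 9.72, 9.76 and 9.91 after ATRA in knockdown cells, against 9.43, 9.43 and 9.04 in control cells. Before ATRA it read 10.44, 10.36 and 10.41 in knockdown cells, against 10.28, 10.43 and 10.40 in control cells. All ATRA arrays lay below all untreated ones, and the 3 knockdown arrays lay above the 3 control arrays only after ATRA. The fall was 1.52-fold in knockdown cells (log2 -0.61, SE 0.11, adjusted p = 0.00169) and 2.10-fold in control cells (log2 -1.07, SE 0.11, adjusted p = 6.85e-05).

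NUP133, which lies at the tip of the complex and contacts the membrane, had 8.43, 8.67 and 8.48 after ATRA in knockdown cells, against 8.36, 8.46 and 8.09 in control cells. Untreated arrays had 9.21, 9.24 and 9.41 in knockdown cells, against 9.18, 9.21 and 9.21 in control cells. The groups with and without ATRA did not overlap, and the fall was 1.69-fold in knockdown and 1.86-fold in control cells. Of the other outer ring genes, NUP107, the partner of NUP133, fell 1.44-fold in knockdown and 1.88-fold in control cells, and NUP37, which binds NUP160, 1.56-fold and 2.21-fold. NUP85 and NUP43, which sit in the complex's arms, fell 1.52-fold and 1.40-fold in knockdown cells and 1.84-fold and 1.47-fold in control cells. SEC13, which also coats secretory vesicles, fell 1.43-fold in knockdown cells and 1.44-fold in control cells.

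SEH1L, shared with a complex that senses amino acids, was the outer ring gene with the largest spread. After ATRA it read 9.86, 9.44 and 9.45 in knockdown cells, against 9.34, 9.49 and 8.27 in control cells. Before ATRA it read 10.42, 10.04 and 10.16 in knockdown cells, against 9.99, 10.27 and 10.33 in control cells. The wild type ATRA array stood more than 1 log2 unit below every other array. The change was -0.63 in knockdown cells (SE 0.26, adjusted p = 0.111) and -1.17 in control cells (SE 0.26, adjusted p = 0.00511). Without the wild type arrays the change in control cells was -0.72 (adjusted p = 0.0187), beside -1.05 for NUP37 and -0.92 for NUP160 in the same fit.

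The inner ring, the scaffold around the channel, had all 5 genes called lower in both kinds of cells, with median changes of -0.64 in knockdown and -0.82 in control cells. NUP35, which binds membrane and joins the ring's subunits, measured 8.25, 8.29 and 8.45 after ATRA in knockdown cells, against 8.01, 7.99 and 7.53 in control cells. It measured 9.03, 8.87 and 9.10 before ATRA in knockdown cells, against 8.70, 8.80 and 8.87 in control cells. Every ATRA array was below every untreated one, and the wild type ATRA array was the lowest. NUP205, a large scaffold protein, read 10.21, 10.42 and 10.30 after ATRA in knockdown cells, against 10.10, 10.08 and 9.62 in control cells. Untreated values were 10.78, 10.82 and 10.78 in knockdown cells, against 10.78, 10.82 and 10.81 in control cells. The untreated arrays of NUP205 spanned less than 0.05 over both kinds of cells, while after ATRA the knockdown arrays all lay above the control arrays.

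NUP35 fell 1.59-fold in knockdown and 1.93-fold in control cells, and NUP205 1.40-fold and 1.83-fold. The related scaffold protein NUP188 fell 1.55-fold in knockdown and 1.67-fold in control cells, and NUP155, which anchors the ring to the membrane, 1.58-fold and 1.77-fold. NUP93, the adaptor that ties the ring to the channel, had the smallest fall of the ring in control cells, 1.54-fold, beside 1.34-fold in knockdown cells. Adjusted p over these genes ran from 0.00194 to 0.0117 in knockdown cells and from 0.000216 to 0.000915 in control cells.

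The central channel, whose disordered proteins form the barrier, had smaller changes. NUP54 measured 9.25, 9.23 and 9.26 after ATRA in knockdown cells, against 8.78, 8.53 and 8.93 in control cells. Its untreated values were 9.66, 9.66 and 9.76 in knockdown cells, against 9.61, 9.28 and 9.48 in control cells. Knockdown arrays lay above control arrays in both states, and ATRA arrays below untreated arrays within each kind of cell. NUP54 fell 1.37-fold in knockdown cells (adjusted p = 0.00938) and 1.64-fold in control cells (adjusted p = 0.000473).

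NUP98, which lies on both faces of the pore and binds the export factor RAE1, read 10.65, 10.73 and 10.68 after ATRA in knockdown cells, against 10.63, 10.62 and 10.68 in control cells. Untreated arrays read 10.83, 10.88 and 10.92 in knockdown cells, against 11.01, 10.91 and 10.86 in control cells. The ATRA arrays were again all lower within each kind of cell, but by small steps: -0.19 in knockdown cells (adjusted p = 0.0548) and -0.28 in control cells (adjusted p = 0.00619). With quantile normalization of the arrays the change of NUP98 in control cells was no longer called and stood at -0.11. NUP58, a partner of NUP54, had -0.45 in knockdown cells (adjusted p = 0.0493) and -0.48 in control cells (adjusted p = 0.0295), and its control arrays overlapped. The NUP58 call was lost in 12 of 23 alternatives in knockdown cells and 6 of 23 in control cells.

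On the cytoplasmic side, where exported RNA leaves the pore, all 5 genes had negative changes in both kinds of cells. All 5 were called lower in control cells and 3 in knockdown cells. RAE1, an mRNA export factor that docks on NUP98, measured 9.44, 9.51 and 9.54 after ATRA in knockdown cells, against 9.30, 9.31 and 9.07 in control cells. Before ATRA it measured 10.02, 10.04 and 9.97 in knockdown cells, against 9.85, 9.92 and 10.04 in control cells. The RAE1 arrays were tight, with all knockdown arrays above the control arrays after ATRA and a fall of 1.42-fold in knockdown and 1.64-fold in control cells. NUP88, which holds NUP214 on the cytoplasmic ring, read 10.66, 10.72 and 10.89 after ATRA in knockdown cells, against 10.61, 10.54 and 10.68 in control cells. Untreated values of NUP88 were 11.35, 11.33 and 11.32 in knockdown cells, against 11.64, 11.19 and 11.37 in control cells. Its untreated scrambled replicate 1 array was the highest of all, and the fall was 1.49-fold in knockdown and 1.73-fold in control cells.

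NUP214, a docking site for XPO1, fell 1.27-fold in knockdown cells and 1.40-fold in control cells, and its call in knockdown cells was lost in 10 of 23 alternatives. AAAS, the gene mutated in Allgrove syndrome, fell 1.74-fold in control cells, and its change of -0.39 in knockdown cells was not called (adjusted p = 0.0691). RANBP2, the filament protein that binds RAN and RANGAP1, changed by -0.40 in control cells (adjusted p = 0.0306) with overlapping arrays, beside -0.28 in knockdown cells (adjusted p = 0.151). The RANBP2 call was lost in 8 of 23 alternatives, and the change was -0.26 without wild type arrays.

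In the nuclear basket, the docking site on the nuclear side, all 3 genes had negative changes in both kinds of cells. Of these 2 were called lower in control cells and 1 in knockdown cells. NUP153, which anchors the basket, measured 10.91, 11.04 and 10.91 after ATRA in knockdown cells, against 10.71, 10.78 and 10.39 in control cells. Its untreated values were 11.37, 11.29 and 11.30 in knockdown cells, against 11.28, 10.99 and 11.21 in control cells. Knockdown arrays were above control arrays in both states. NUP153 fell 1.29-fold in knockdown and 1.45-fold in control cells, and the call in knockdown cells was lost in 9 of 23 alternatives.

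TPR, which forms the basket's filaments, read 8.97, 8.87 and 8.85 after ATRA in knockdown cells, against 8.64, 8.98 and 8.64 in control cells. Before ATRA, TPR values were 9.20, 9.22 and 9.27 in knockdown cells, against 8.93, 9.37 and 9.24 in control cells. The control arrays of TPR overlapped, since scrambled replicate 2 after ATRA lay above scrambled replicate 1 before it. TPR fell 1.34-fold in control cells (adjusted p = 0.0170; lost in 7 of 23 alternatives), and its change of -0.34 in knockdown cells missed the threshold (adjusted p = 0.0613). NUP50, which helps release importin alpha from its cargo, was called in neither.

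The membrane anchors NDC1 and NUP210 span the nuclear envelope. Both were called lower in control cells, and only NDC1 was called in knockdown cells. NDC1 measured 9.97, 10.23 and 10.31 after ATRA in knockdown cells, against 10.01, 10.00 and 9.66 in control cells. It measured 10.94, 10.93 and 10.89 before ATRA in knockdown cells, against 10.87, 10.79 and 10.90 in control cells. The untreated arrays lay within 0.15 of each other and every ATRA array lay far below them, with a fall of 1.69-fold in knockdown and 1.95-fold in control cells.

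NUP210, whose level differs between cell types in mouse, read 11.01, 11.19 and 11.002 after ATRA in knockdown cells, against 10.88, 10.82 and 10.58 in control cells. Before ATRA, NUP210 values were 11.34, 11.30 and 11.08 in knockdown cells, against 11.45, 11.79 and 11.50 in control cells. Knockdown arrays were all above the control arrays after ATRA and all below them before it, and in knockdown cells the arrays with and without ATRA overlapped. NUP210 fell 1.77-fold in control cells (log2 -0.82, SE 0.12, adjusted p = 0.000339). Its change in knockdown cells was -0.17 (SE 0.12, adjusted p = 0.353).

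Importin alpha proteins are the adaptors that recognise the classical nuclear localization signal. In both kinds of cells 4 of the 6 were called lower and 1 higher, with median changes of -0.38 in knockdown and -0.41 in control cells. KPNA3 measured 10.51, 10.63 and 10.49 after ATRA in knockdown cells, against 10.57, 10.76 and 10.44 in control cells. Untreated arrays measured 11.42, 11.44 and 11.64 in knockdown cells, against 11.54, 11.27 and 11.48 in control cells. The groups with and without ATRA lay far apart, and the knockdown arrays overlapped the control arrays in both states. KPNA3 fell 1.95-fold in knockdown cells (adjusted p = 0.000234) and 1.79-fold in control cells (adjusted p = 0.000184).

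KPNA1 read 9.18, 9.21 and 9.26 after ATRA in knockdown cells, against 9.04, 9.19 and 8.91 in control cells. Untreated values were 9.50, 9.65 and 9.71 in knockdown cells, against 9.50, 9.52 and 9.64 in control cells. Its ATRA arrays were all lower, by 1.33-fold in knockdown and 1.42-fold in control cells. KPNA6, of the same subfamily as KPNA1 and KPNA5, fell 1.27-fold in knockdown and 1.37-fold in control cells. KPNA2, the form typical of dividing cells, fell 1.48-fold in knockdown and 1.29-fold in control cells. KPNA4, close in sequence to KPNA3, was called in neither, with -0.29 in knockdown cells and -0.17 in control cells.

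KPNA5, an importin alpha of the same subfamily as KPNA1, went the other way. It read 8.46, 8.29 and 8.28 after ATRA in knockdown cells, against 8.08, 8.13 and 8.18 in control cells. Before ATRA it read 7.88, 7.77 and 7.79 in knockdown cells, against 7.63, 8.05 and 7.84 in control cells. All ATRA arrays lay above all untreated ones, and the untreated scrambled replicates were the lowest and the highest untreated array. KPNA5 rose 1.45-fold in knockdown cells (log2 0.53, SE 0.10, adjusted p = 0.00271) and 1.22-fold in control cells (log2 0.29, SE 0.10, adjusted p = 0.0416). The rise was called in all 23 alternatives in knockdown cells but in only 8 of 23 in control cells, where it was 0.19 (adjusted p = 0.142) without the untreated scrambled replicate 1 array.

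**Figure D2:**
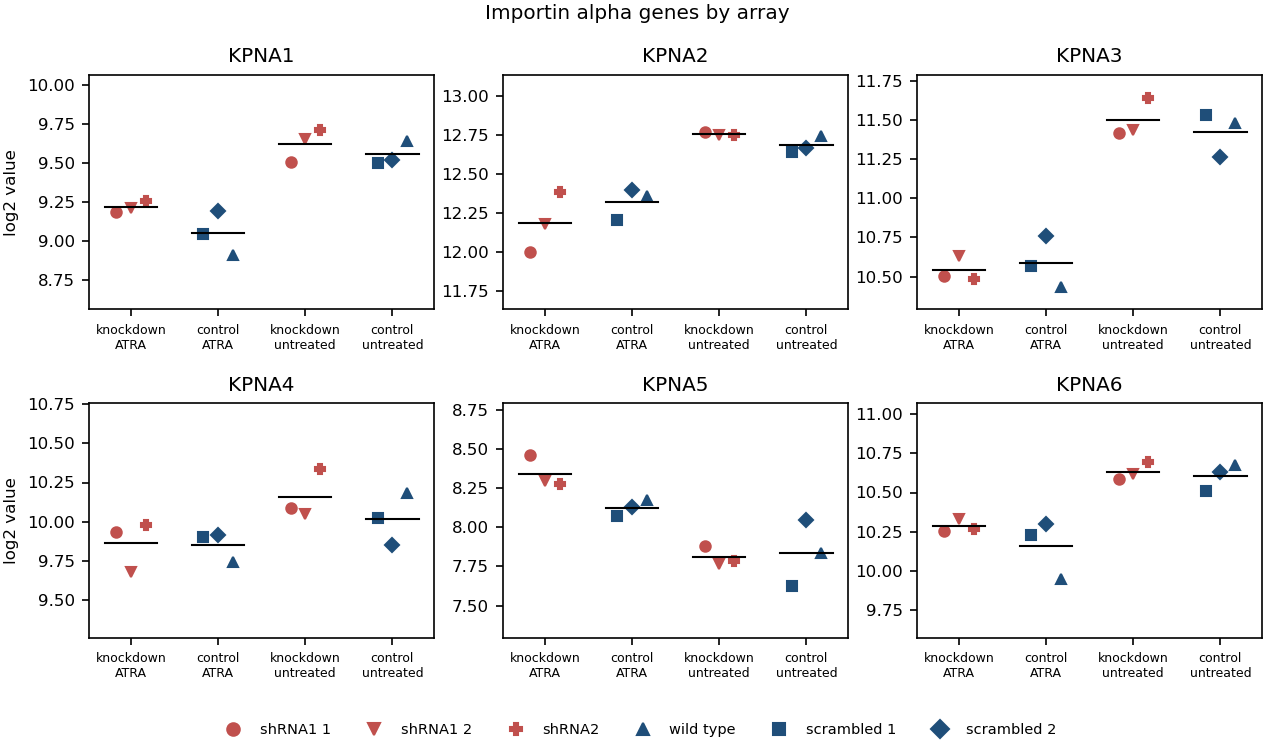
Log2 values of the 6 importin alpha genes (vertical axes, on scales of equal span but different level) in each array, with knockdown cells in red and control cells in blue, after ATRA on the left of each panel and untreated on the right. Symbols mark the lines and bars the arm means; KPNA3 shows the widest step down, KPNA5 steps up, and the KPNA4 groups overlap in control cells.

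Importin beta proteins carry cargo through the pore, alone or with importin alpha. All 11 had negative changes in both kinds of cells, and 11 were called lower in control cells and 7 in knockdown cells. IPO4 measured 9.58, 9.70 and 9.41 after ATRA in knockdown cells, against 9.36, 9.15 and 8.86 in control cells. Its untreated values were 10.64, 10.68 and 10.80 in knockdown cells, against 10.75, 10.25 and 10.73 in control cells. Arrays with and without ATRA were far apart, with untreated scrambled replicate 2 lowest among the untreated ones and the knockdown arrays all above the control arrays after ATRA. IPO4 fell 2.21-fold in knockdown cells (log2 -1.14, SE 0.15, adjusted p = 0.000531) and 2.73-fold in control cells (log2 -1.45, SE 0.15, adjusted p = 8.77e-05).

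IPO5, a carrier of ribosomal proteins and histones, read 11.12, 10.81 and 10.78 after ATRA in knockdown cells, against 10.36, 10.69 and 10.50 in control cells. Before ATRA, IPO5 values were 11.63, 11.47 and 11.47 in knockdown cells, against 11.72, 11.37 and 11.50 in control cells. The knockdown arrays overlapped the control arrays only before ATRA, and IPO5 fell 1.54-fold in knockdown and 2.03-fold in control cells. IPO11, which carries ubiquitin-conjugating enzymes, had about equal falls, 2.54-fold in knockdown cells and 2.44-fold in control cells.

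KPNB1, the partner of importin alpha, fell 1.23-fold in knockdown and 1.30-fold in control cells. IPO13, which works in both directions, fell 1.35-fold and 1.39-fold. The transportins TNPO1 and TNPO2, carriers of RNA-binding proteins, fell 1.22-fold and 1.5-fold in knockdown cells and 1.30-fold and 1.62-fold in control cells. The wild type ATRA array of TNPO2 was low, and without it the change in control cells was -0.46 (adjusted p = 0.0450), or -0.30 without both wild type arrays (adjusted p = 0.128). The call of KPNB1 in control cells was likewise lost without wild type arrays, at -0.25. In knockdown cells the calls were lost in 13 (KPNB1), 11 (TNPO2) and 7 (TNPO1) of 23 alternatives.

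The other 4 importin beta genes were called only in control cells. IPO7, which carries ribosomal proteins, changed by -0.40 in knockdown cells (adjusted p = 0.0582) and -0.48 in control cells (adjusted p = 0.0217). IPO8, its close relative, changed by -0.25 in knockdown cells (adjusted p = 0.112) and -0.29 in control cells (adjusted p = 0.0476). TNPO3, which imports splicing factors, changed by -0.13 in knockdown cells (adjusted p = 0.350) and -0.28 in control cells (adjusted p = 0.0262). In control cells these calls were lost in 7 (IPO7), 14 (IPO8) and 6 (TNPO3) of 23 alternatives. IPO9, a histone importer, stood apart from them and is described with the difference of the responses.

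Exportins carry cargo out of the nucleus, and 5 of 6 were called lower in both kinds of cells. Median changes were -0.49 in knockdown and -0.72 in control cells. XPO4, which exports the translation factor eIF5A, measured 9.70, 9.65 and 9.53 after ATRA in knockdown cells, against 9.35, 9.54 and 9.36 in control cells. It measured 10.31, 10.15 and 10.22 before ATRA in knockdown cells, against 10.38, 10.26 and 10.19 in control cells. Its 2 states did not overlap, and the fall was 1.52-fold in knockdown cells (SE 0.08 on the log2 scale) and 1.81-fold in control cells (SE 0.08). CSE1L, which returns importin alpha to the cytoplasm, read 11.12, 11.30 and 11.39 after ATRA in knockdown cells, against 11.13, 11.31 and 10.82 in control cells. Untreated values of CSE1L were 12.18, 12.24 and 12.14 in knockdown cells, against 12.04, 11.85 and 12.27 in control cells. The fall of CSE1L was nearly equal, 1.88-fold in knockdown and 1.95-fold in control cells, and knockdown and control arrays overlapped in both states.

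XPO5, the exporter of microRNA precursors, fell 1.69-fold in knockdown and 1.99-fold in control cells. XPO1, the main exporter of proteins with a leucine-rich export signal, fell 1.31-fold and 1.45-fold. XPO7, an exportin of broad cargo, fell 1.26-fold in knockdown and 1.49-fold in control cells. XPO6 was called in neither, and at -0.17 in knockdown and -0.07 in control cells it had the smallest change of the exportins.

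The Ran cycle genes fell by similar amounts in both kinds of cells. NUTF2, which brings RAN back into the nucleus, measured 11.88, 12.01 and 11.96 after ATRA in knockdown cells, against 11.98, 11.93 and 11.64 in control cells. Its untreated values were 12.45, 12.45 and 12.57 in knockdown cells, against 12.46, 12.47 and 12.48 in control cells. RANGAP1, which makes RAN hydrolyse its GTP outside the nucleus, read 9.04, 9.23 and 9.22 after ATRA in knockdown cells, against 8.98, 8.80 and 8.97 in control cells. Before ATRA RANGAP1 read 9.93, 10.02 and 10.00 in knockdown cells, against 9.97, 9.42 and 9.83 in control cells, and the untreated scrambled replicate 2 array was well below the others. Both genes had separate ranges with and without ATRA. NUTF2 fell 1.45-fold in knockdown and 1.54-fold in control cells, and RANGAP1 1.76-fold and 1.77-fold. RAN fell 1.44-fold and 1.36-fold by its probe set with the highest mean, and values of its other probe sets are not shown.

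**Figure D3:**
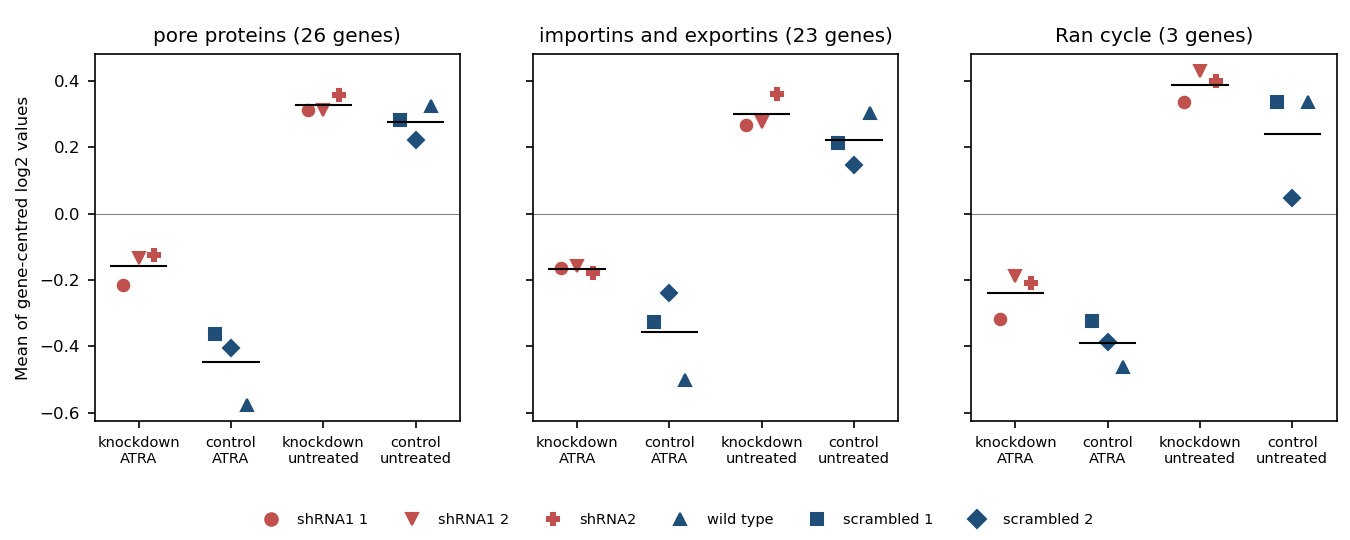
Mean of the gene-centred log2 values (vertical axis) of the 26 pore proteins, 23 importins and exportins and 3 Ran cycle genes in each array, with knockdown cells in red, control cells in blue, and bars for the arm means. All ATRA arrays lie below 0 and all untreated arrays above it; pore proteins lie between -0.21 and -0.13 in knockdown cells after ATRA and between -0.58 and -0.36 in control cells after ATRA.

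The change of a line sets its ATRA array against the untreated array of the same name and number; the labels do not say that the numbers pair the samples. In every such pair the class medians were below 0, and wild type had the deepest medians. Over pore proteins the median change per line was -0.56 in shRNA1 replicate 1, -0.49 in shRNA1 replicate 2 and -0.48 in shRNA2, against -0.66 in scrambled replicate 1, -0.63 in scrambled replicate 2 and -0.90 in wild type. Importins and exportins had -0.33, -0.37 and -0.47 in the same 3 knockdown lines, against -0.46, -0.35 and -0.72 in the same 3 control lines. For pore proteins the knockdown lines did not overlap the control lines, while for importins and exportins they did. The separation was not particular to pore proteins. The 3844 genes called lower in control cells, chosen on the same control arrays, had -0.42, -0.38 and -0.43 in the knockdown lines. In the control lines those genes had -0.54, -0.50 and -0.72. Each line had 49 to 51 of the 52 genes lower after ATRA. Wild type cells carried no vector, and line and vector cannot be told apart from each other with 1 wild type pair.

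**Figure D4:**
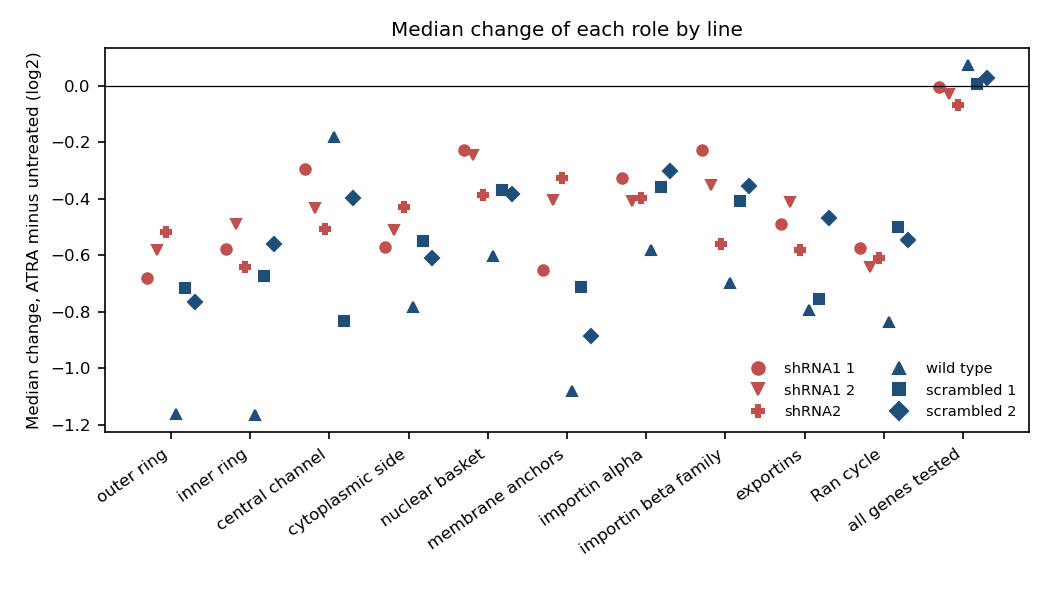
Median log2 change with ATRA of each role (vertical axis, ATRA minus untreated) in each of 6 lines, with knockdown lines in red left of control lines in blue, and all genes tested at the right. The wild type line is lowest in most roles and highest in the central channel, where it lies at -0.18.

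Knockdown and control cells were then compared after ATRA. None of the 52 genes passed the adjusted threshold in limma, against 0.0543% of all genes called higher. At an unadjusted p under 0.05, 25 of the 52 were higher in knockdown cells (16 pore proteins and 9 importins and exportins), against 12% of all genes. At the same threshold 0 were lower, against 16.1% of all genes. The difference was positive in 49 of 52 genes, against 45.3% of all genes, in all 26 pore proteins and in 20 of 23 importins and exportins. Under some alternatives SEC13, NUP98 and NUP58 turned negative, with lowest values of -0.11, -0.04 and -0.001. In 26 genes every knockdown array lay above every control array, against 14.3% of all genes. Median differences were 0.28 for pore proteins and 0.19 for importins and exportins, beside -0.03 over all genes.

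The smallest adjusted p, 0.0539, was shared by IPO9 (log2 0.31, SE 0.06), NUP160 (0.50, SE 0.11) and NUP54 (0.50, SE 0.11). XPO7 (0.32, adjusted p = 0.0578), NUP107 (0.45, adjusted p = 0.0583) and NUP35 (0.49, adjusted p = 0.0598) came next. SEH1L had the largest difference, 0.55, but with an SE of 0.26 and overlapping arrays. The 3 negative values belonged to KPNA2 (-0.13), KPNA3 (-0.05) and XPO6 (-0.04). By role the median difference was 0.39 in the outer ring, 0.33 in the basket and 0.295 for the membrane anchors. It was 0.27 in the inner ring, 0.23 on the cytoplasmic side and 0.12 in the central channel. Exportins had 0.24, the importin beta family 0.20 and importin alpha 0.07, so the roles of the 2 classes overlapped.

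The absence of calls depended on the processing. With each array centred on its median 4 genes were called higher (NUP160, NUP54, IPO9 and XPO7), and with array weights these and NUP107. The same 5 genes were called without the untreated scrambled replicate 2 array, which enters this comparison only through the estimate of the spread. Calls rose over all 18404 genes too. There 10 were higher in the first fit, 249 with median-centred arrays, 383 with array weights and 420 without the untreated scrambled replicate 2 array. The 2 hairpins were set side by side after ATRA: shRNA1 minus scrambled had a median of 0.19 over pore proteins and 0.12 over importins and exportins, and shRNA2 minus wild type had 0.43 and 0.29. Hairpin and the kind of control differ together in these pairs and cannot be told apart.

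Before ATRA the genes differed little between knockdown and control cells. None was called, as was the case for 0% of all genes, and median differences were 0.06 for pore proteins and 0.08 for importins and exportins, beside 0.00 over all genes. The difference was positive in 40 of 52 genes, against 51.2% of all genes. At an unadjusted p under 0.05, NUP210 was lower in knockdown cells (-0.34, 2.33% of all genes lower) and NUP54 was higher (0.24, 1.62% of all genes higher), both with adjusted p = 0.999 in limma. All knockdown arrays lay below all control arrays for NUP210, as for 4.04% of all genes. They lay above for NUP54, as for 3.75% of all genes. They also lay above for NUP50, NUP153, KPNA2 and XPO5, so this was not special to the genes named first.

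**Figure D5:**
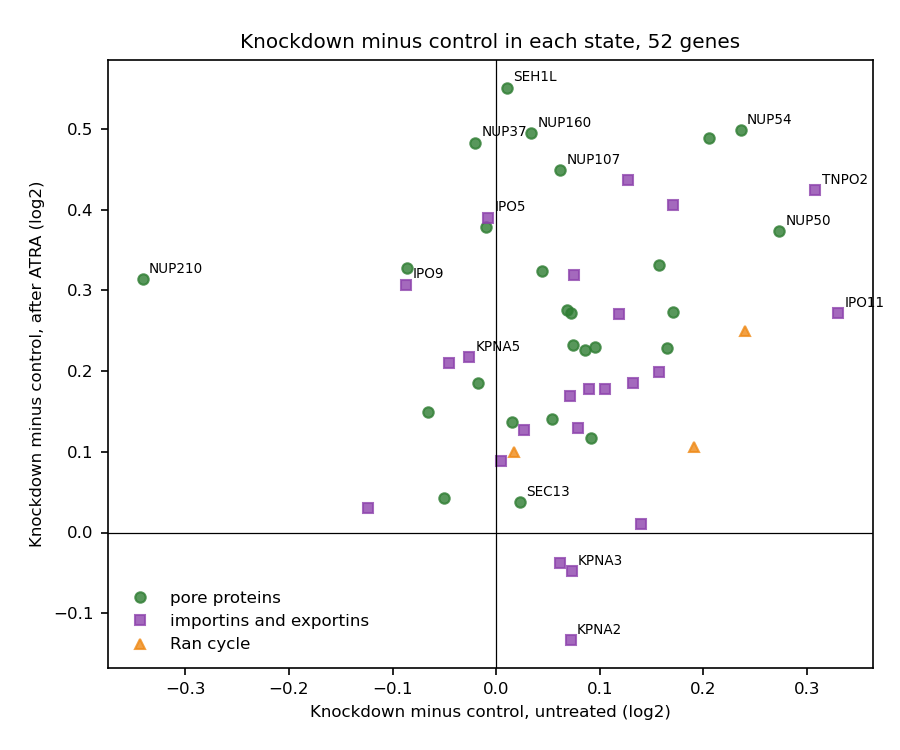
Knockdown minus control (log2) after ATRA on the vertical axis against the same difference in untreated cells on the horizontal axis, 1 point for each of the 52 genes, coloured by class. Pore proteins lie above 0 on the vertical axis, KPNA2, KPNA3 and XPO6 lie below it, and NUP210 lies alone at the left.

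The difference of the ATRA responses, knockdown minus control, asks whether a fall was smaller in knockdown cells. None of the 52 genes passed the adjusted threshold in limma, and neither did any gene tested (0%). At an unadjusted p under 0.05, 7 of the 52 had a positive difference, against 5.71% of all genes: IPO9, NUP210, NUP160, NUP107, NUP205, IPO5 and NUP37, with adjusted p from 0.271 to 0.320. The value was positive in 46 of 52 genes, against 48.7% of all genes, in all 26 pore proteins and in 18 of 23 importins and exportins. The uniform sign of the pore proteins did not hold under every alternative. Several turned negative in some of them, among these SEC13 (lowest value -0.15), NUP58 (-0.11) and NUP50 (-0.08). In 9 genes the changes of the 3 knockdown lines all lay above those of the 3 control lines, against 9.16% of all genes, which rests on pairing arrays by line and replicate number. Medians were 0.20 for pore proteins, 0.10 for importins and exportins and 0.01 for the Ran cycle, beside -0.01 over all genes. Exportins alone had 0.19, the importin beta family 0.09 and importin alpha -0.01. The pore roles ran from 0.09 in the central channel to 0.43 for the membrane anchors. The medians of pore proteins and of importins and exportins were 0.13 and 0.00 without the ATRA wild type array, 0.09 and -0.03 without both wild type arrays, and 0.09 and 0.01 with quantile normalization. Without the untreated shRNA1 replicate 1 array that of importins and exportins was 0.06, and it was also 0.06 without the untreated wild type array and 0.17 without the ATRA scrambled replicate 2 array or without both shRNA2 arrays.

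IPO9, which imports histones H2A and H2B, had the smallest p and is given in full, a choice made after its values were seen. After ATRA it read 10.32, 10.31 and 10.34 in knockdown cells, against 10.03, 10.02 and 10.01 in control cells. Before ATRA it read 10.44, 10.44 and 10.34 in knockdown cells, against 10.44, 10.50 and 10.56 in control cells. Replicates were tight within each arm, the knockdown arrays after ATRA all lay above the control arrays, and only the control cells showed a called fall. The change was -0.08 in knockdown cells (SE 0.06, adjusted p = 0.395) and -0.48 in control cells (SE 0.06, adjusted p = 0.000228). Their difference was 0.39 (SE 0.09, adjusted p = 0.271).

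NUP210 had the largest difference of the responses, 0.66 (SE 0.17, limma adjusted p = 0.271). It came from both states, with knockdown minus control at -0.34 before ATRA and 0.31 after it, neither of them called. NUP160 had 0.46 (SE 0.15, adjusted p = 0.271) and NUP37 0.50 (SE 0.23, adjusted p = 0.320). Before ATRA their knockdown minus control values were 0.03 and -0.02. The lowest values were those of KPNA2 (-0.21), KPNA4 (-0.13) and KPNA3 (-0.12), with standard errors of 0.13, 0.16 and 0.15.

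Other genes that fell with ATRA had similar values. Among the 3844 genes called lower in control cells the median difference of the responses was 0.19, and the median of knockdown minus control after ATRA was 0.23. These genes were chosen on the same control arrays that enter both differences, so the medians describe and test nothing. A list of 10 proliferation genes fell too: its median change with ATRA was -0.65 in knockdown and -0.96 in control cells, and knockdown minus control after ATRA was 0.33. The list was mixed in the difference of the responses, which was positive in 7 genes and negative in 3. It ran from -0.07 (TOP2A) to 0.72 (MCM6). The part of the proliferation genes in the changes of the pore and transport genes was not tested.

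Genes that work beside the pore moved in part with it. Of all genes 14.7% were called lower in knockdown and 20.9% in control cells. Of 18 measured mRNA export genes 6 were called lower in knockdown and 11 in control cells. In control cells THOC7, of the complex that loads export factors on mRNA, led (-0.76, limma adjusted p = 0.000219). PCID2, of the export complex at the basket, came next (-1.08, adjusted p = 0.000250). Of 13 other transport factors and adaptors 6 were called lower in knockdown and 10 in control cells. In control cells they were led by RANBP1, a cofactor of RAN hydrolysis (-1.38, adjusted p = 0.000248), and SNUPN, the adaptor for splicing particles (-0.88, adjusted p = 0.000280). NMD3, the export adaptor of the large ribosomal subunit, was the 1 called higher in control cells (0.33, adjusted p = 0.0275). Of 4 other pore-associated genes measured 0 were called lower in knockdown cells. The SUMO protease SENP1 was the 1 called lower in control cells (-0.43, adjusted p = 0.000799), a share near that of all genes.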

How the data were processed

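The deposited table holds log2 values of 32321 probe sets on 12 ST arrays; RMA and limma are named per the submitters' processing notes, and the array's genome build is not given in the sources used here. Of the probe sets 19158 were annotated to 1 gene, 1388 to several and 11775 were not listed, which left 18404 genes. All genes were fitted in limma 3.58.1 (R 4.3.3) with a model of 4 arm means and 8 residual degrees of freedom. Tests were two-sided, and p-values were adjusted by Benjamini-Hochberg over all genes of a contrast, with a threshold of 0.05. The fit was tested on simulated data. Values per array are given for the 2 genes of each role with the smallest p for ATRA in control cells and for KPNA5; IPO9 and SEH1L were added after their values were seen. The members and gene lists were chosen with earlier results of these data known. Alternatives covered normalization, filtering, weights, replicate block and left-out arrays. Promoters are from RefSeq.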

Additional observations from a re-analysis of the deposited data

How the results depend on the processing

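No call changed direction under the 23 alternatives (22 for knockdown against control, where the fixed block cannot be used), but uncalled values did. For the ATRA change in control cells KPNA4 reached 0.02 and XPO6 0.09. Knockdown minus control after ATRA reached -0.11 for SEC13 and -0.06 for TNPO3, among others. Before ATRA several genes changed sign, such as NUP37 (-0.15 to 0.17). For the difference of the responses SEC13 reached -0.15 and NUP58 -0.11, and further genes of both classes changed sign. The median of importins and exportins turned to -0.03 for the difference of the responses without wild type arrays. It turned to -0.01 for knockdown minus control before ATRA with array weights. In control cells 33 of 49 calls, and in knockdown cells 22 of 39, held in all of them. The count of genes higher with ATRA in control cells, 1 in the report, was 0 with quantile normalization, with median-centred arrays, with scrambled and shRNA1 arrays alone, and without shRNA2 or wild type arrays, and ranged from 0 to 1 when 1 array was left out. Quantile normalization gave medians of -0.45 (pore proteins) and -0.32 (importins and exportins) in knockdown cells and -0.60 (pore proteins) in control cells, and lost 6 calls in knockdown cells and 10 in control cells. Scrambled and shRNA1 arrays alone gave 23 genes lower in knockdown cells. Knockdown minus control after ATRA had 4 genes higher with median-centred arrays, 5 with array weights, and 0 to 5 when 1 array was left out. Over all genes the counts higher and lower there were 10 and 1, against 249 and 108 with median-centred arrays, 383 and 313 with array weights, 138 and 142 with quantile normalization, 44 and 19 without the dimmest genes, and 420 and 281 without the untreated scrambled replicate 2 array. Counts over all genes in control cells, 2800 higher and 3844 lower, became 983 and 2477 without wild type arrays and 763 and 2218 with scrambled and shRNA1 arrays alone, and 4450 were higher with array weights; 1549 and 1783 were higher without the untreated and the ATRA wild type array. In knockdown cells, 1854 and 2714 became 980 and 1338 without shRNA2 arrays and 946 and 1415 with scrambled and shRNA1 arrays alone. With the line as a fixed replicate block 34 genes were lower in knockdown and 46 in control cells, and 1 was higher in each. Deviations of the 2 arrays of a line correlated at 0.16, 0.23 and 0.12 in the knockdown lines and at -0.11, 0.19 and -0.17 in the scrambled and wild type lines, so the pairing did not hold in every line. As a random replicate block the line had a consensus correlation of 0.04; knockdown against control cannot have the line as a fixed block. The causes of these shifts were not tested.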

Other observations

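NUP42, a cytoplasmic pore-associated gene that is not among the 55, was called higher with ATRA in knockdown cells (log2 0.34, limma adjusted p = 0.0304), beside 0.15 in control cells (adjusted p = 0.264). The difference of these responses was 0.19 (adjusted p = 0.516).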
